A study of Citrullus lanatus with 4 samples.

Results

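Among 23440 watermelon genes counted in flowers and floral buds of a male sterile and a male fertile line, 8 genes were high in the open flower of the fertile line and much lower both in its own floral bud and in the sterile flower. The genes were selected on measured values. Each had at least 10 CPM (a gene's counts per 1000000 counts on genes) in DAH3615 flowers, at least 3 times the level of DAH3615 floral buds and at least 4 times the level of DAH3615-MS flowers, with 1 CPM added to each value before a ratio was taken. Differences among the 3 libraries that entered this rule are therefore a description. The DAH3615-MS floral bud library was not read by the rule, although each comparison with it also uses a library that was. In that library all 8 genes were lower than in DAH3615 floral buds, and 7 of them had at most 10 counts in each DAH3615-MS library.

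The genic male sterile line DAH3615-MS (msms) takes its sterility from ms-1, a male sterile line of Chinese origin, and DAH3615 (Msms) is its fertile near-isogenic line. Both came from a backcross population segregating 1:1 and grew in a greenhouse. Flowers were taken on the first day of flowering and floral buds the day before flowering, from different nodes, and the sterile buds were shorter than the fertile ones. Sterile flowers were also smaller than fertile ones, with defective stamens and no pollen. One RNA-seq library was made from each of DAH3615-MS flowers, DAH3615-MS floral buds, DAH3615 flowers and DAH3615 floral buds, so no condition had a replicate, and a condition cannot be told apart from its library. The libraries held 5239032 to 6315796 counts on genes, and 19732 genes had a count in at least 1 of them. At these depths 3 counts, the limit that a count of 0 allows, correspond to 0.475 to 0.573 CPM.

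Pollen forms inside the anther, where the tapetum nourishes the developing microspores. Pollen grains then mature, dry and are released when the anther opens at flowering. Transcripts made late in pollen maturation are stored in the grain and are used when it germinates and the pollen tube grows. Petals and nectaries also complete their growth as the flower opens, so a gene can peak in the open flower in male and in other floral tissue. The libraries are from whole organs, in which fewer cells of a type and less RNA per cell cannot be told apart. The text descriptions used here cover only part of the gene IDs and none of the 8, so no function is given to any of them.

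The combination of the organ and the line criterion was uncommon. Of 11026 genes with at least 10 CPM in DAH3615 flowers, 572 (5.19%) met the line criterion and 659 (5.98%) met the organ criterion. The 8 genes that met both were 1.40% of the line-biased genes and 1.21% of the organ-biased ones. Most line-biased genes changed little between the organs of the fertile line: 552 of the 572 (96.5%) stayed within 3-fold, and 12 were at least 3-fold lower in the flower than in the floral bud. The quartiles of the log2 organ ratio over the 572 were -0.05 and 0.57. Among the 169 with a line ratio of at least 64, a limit chosen after the values were seen, the quartiles were 0.33 and 0.59 with a median of 0.49. Those of the 8 genes were 1.87 and 2.60, a position that the rule fixed.

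**Figure D1:**
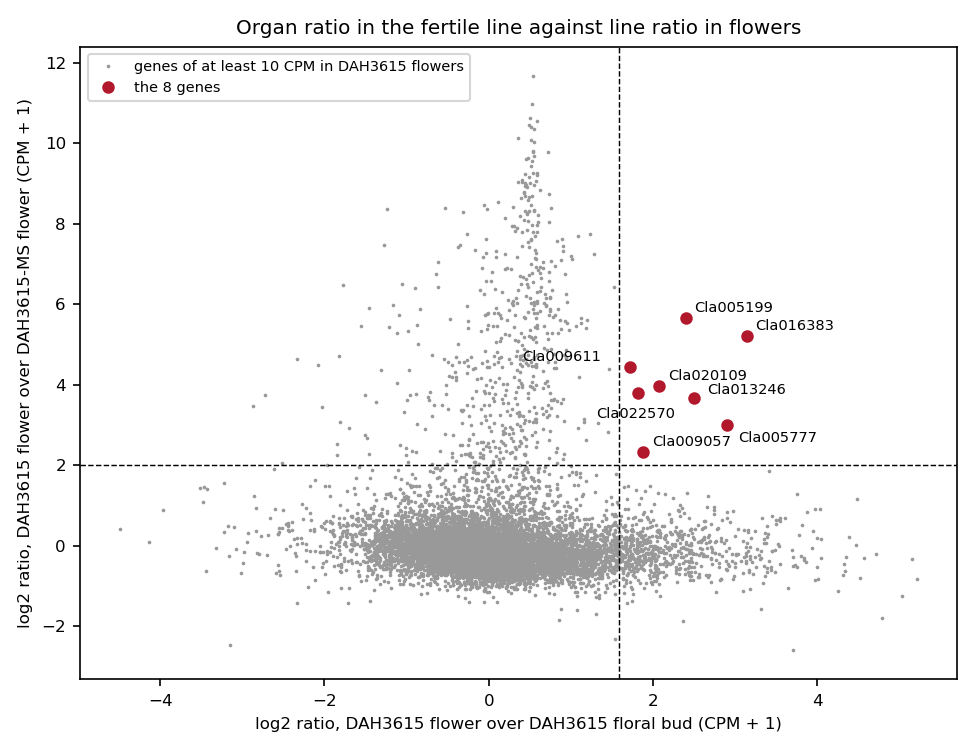
Each point is a gene with at least 10 CPM in DAH3615 flowers, placed by its log2 ratio of DAH3615 flower over DAH3615 floral bud (horizontal) and of DAH3615 flower over DAH3615-MS flower (vertical), both on CPM + 1, and the dashed lines are the thresholds of 3 and 4. Most genes high on the vertical axis stand in a narrow column near a log2 organ ratio of 0.49, and the 8 selected genes, in red, lie to the right of it.

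Cla009057 (chromosome 1, 21184255 to 21184485, plus strand) was the most abundant of the genes and the only one with more than 10 counts in a sterile library. It had 530 counts (101 CPM) in DAH3615-MS flowers and 62 counts (10.7 CPM) in DAH3615-MS floral buds, against 3224 counts (510 CPM) in DAH3615 flowers and 776 counts (138 CPM) in DAH3615 floral buds. Both sterile libraries lay below both fertile ones, and within each line the flower lay above the bud. The level was 5.05-fold lower in DAH3615-MS flowers (95% exact counting interval 4.60 to 5.54), as a ratio of DAH3615 over DAH3615-MS. In the fertile line it was 3.70-fold higher in flowers than in floral buds (3.42 to 4.01). All such intervals cover counting error only, since PCR reads are not independent molecules.

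Cla005199, Cla016383 and Cla013246 had 0 counts in both DAH3615-MS libraries. Cla005199 (chromosome 3, 28126497 to 28126817, minus strand) had 0 counts in DAH3615-MS flowers and floral buds, 312 counts (49.4 CPM) in DAH3615 flowers and 48 counts (8.52 CPM) in DAH3615 floral buds. It was at least 86.3-fold lower in DAH3615-MS flowers, with the 0 set to 3 counts in that library, and 5.80-fold (4.27 to 8.03) higher in DAH3615 flowers than in DAH3615 floral buds. Cla016383 (chromosome 9, 9375263 to 9375909, plus strand) had 0 counts in either DAH3615-MS library, 228 counts (36.1 CPM) in DAH3615 flowers and 18 counts (3.20 CPM) in DAH3615 floral buds. This gene had the largest organ ratio of the 8 on the CPM + 1 scale of the rule, at 8.84. Cla013246 (chromosome 5, 13661439 to 13665364, plus strand) was the least abundant of the 8 in DAH3615 flowers, with 0 counts in the 2 DAH3615-MS libraries, 74 counts (11.7 CPM) in DAH3615 flowers and 7 counts (1.24 CPM) in DAH3615 floral buds. Its level was at least 20.5-fold lower in DAH3615-MS flowers, and that of Cla016383 at least 63.0-fold lower. Among all expressed genes, 4.56% had 0 counts in both DAH3615-MS libraries, and among genes with at least 10 CPM in DAH3615 flowers the share was 1.02%. The share among the 8 was 37.5%, and among the other 564 line-biased genes it was 19.5%. The line criterion of the rule favours such genes, so nothing is read from this count.

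Cla009611 and Cla005777 were near the floor in the sterile line. Cla009611 (chromosome 1, 31528718 to 31530498, plus strand) had 4 counts (0.764 CPM) in DAH3615-MS flowers and 1 count (0.173 CPM) in DAH3615-MS floral buds, against 236 counts (37.4 CPM) in DAH3615 flowers and 60 counts (10.7 CPM) in DAH3615 floral buds. Its level in the fertile bud was second only to that of Cla009057 among the 8. Cla005777 (chromosome 11, 11769390 to 11771609, minus strand) had the same 4 counts (0.764 CPM) and 1 count (0.173 CPM) in DAH3615-MS flowers and floral buds, but 83 counts (13.1 CPM) in DAH3615 flowers and 5 counts (0.888 CPM) in DAH3615 floral buds. Cla005777 was thus under 1 CPM in 3 of the 4 libraries. The ratio of DAH3615 flowers to DAH3615 floral buds was 14.8 (6.09 to 46.8) for Cla005777 and 3.51 (2.63 to 4.74) for Cla009611. In flowers, DAH3615 over DAH3615-MS was 17.2 (6.48 to 64.7) for Cla005777 and 48.9 (18.9 to 181) for Cla009611.

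The remaining pair, Cla022570 and Cla020109, had a few more counts in sterile buds than in sterile flowers. Cla022570 (chromosome 8, 24701094 to 24704436, plus strand) had 6 counts (1.15 CPM) in DAH3615-MS flowers and 10 counts (1.73 CPM) in DAH3615-MS floral buds, against 182 counts (28.8 CPM) in DAH3615 flowers and 42 counts (7.46 CPM) in DAH3615 floral buds. Cla020109 (chromosome 2, 23573464 to 23577270, minus strand) had 4 counts (0.764 CPM) in DAH3615-MS flowers and 9 counts (1.56 CPM) in DAH3615-MS floral buds, against 167 counts (26.4 CPM) in DAH3615 flowers and 31 counts (5.51 CPM) in DAH3615 floral buds. Both therefore had their highest value in the fertile flower and their lowest in the sterile flower, with the 2 buds between. In flowers, DAH3615 over DAH3615-MS was 25.2 (11.3 to 69.5) for Cla022570 and 34.6 (13.3 to 129) for Cla020109. In the fertile line, flower over floral bud was 3.86 (2.75 to 5.54) for Cla022570 and 4.80 (3.26 to 7.29) for Cla020109.

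**Figure D2:**
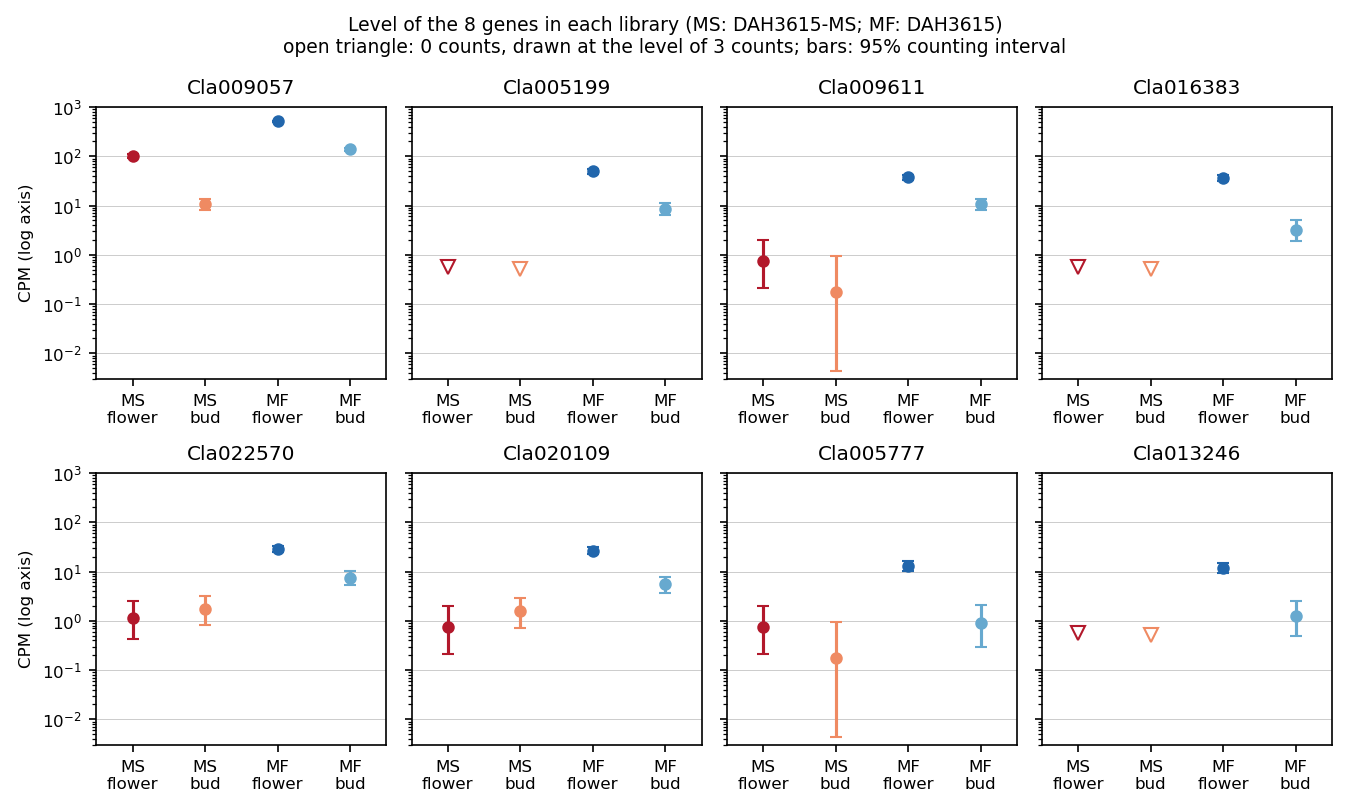
Each panel shows 1 gene, with its CPM on a log axis in DAH3615-MS flowers, DAH3615-MS floral buds, DAH3615 flowers and DAH3615 floral buds (MS and MF in the axis labels), 1 library each with the 95% counting interval, and open triangles for libraries with 0 counts, drawn at 3 counts. The DAH3615 flower is the highest of the 4 libraries in all 8 panels, from 11.7 CPM for Cla013246 to 510 CPM for Cla009057.

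Per kilobase of gene span, introns included, the order of the levels in DAH3615 flowers changed only in that Cla016383 passed Cla009611. Cla009057, whose span is 231 bp, had 2210 CPM per kb, Cla005199 (321 bp) had 154 CPM per kb and Cla016383 (647 bp) had 55.8 CPM per kb. Cla009611, with a span of 1781 bp, had 21.0 CPM per kb. The other 4 genes had spans of 2220 to 3926 bp and levels of 2.98 to 8.62 CPM per kb. The median span of the 8 genes was 2000.5 bp, against 2323 bp over all expressed genes.

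The line difference in floral buds brings in the library that the rule did not read. The sterile buds were also shorter, and line and bud size cannot be told apart. The rule capped the DAH3615 floral bud level of each gene through the organ criterion, so the size of the difference in buds is limited by the choice of genes. On the CPM + 1 scale, 4 of the 8 genes (Cla009057, Cla009611, Cla005199 and Cla016383) were at least 4-fold lower in DAH3615-MS floral buds, against a background of 3.75% of all expressed genes and 5.24% of genes with at least 10 CPM in DAH3615 flowers. Cla022570, Cla013246 and Cla020109 were within 4-fold, and Cla005777 was under 1 CPM in both buds. At any fold, 8 of 8 were lower in DAH3615-MS floral buds, against 36.2% of genes with at least 10 CPM in DAH3615 flowers. The other line-biased genes were all lower there too, so this direction does not set the 8 apart.

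The ratios between the buds carried wide counting intervals. DAH3615 over DAH3615-MS was 12.8 (9.91 to 16.9) for Cla009057 and 61.6 (10.6 to 2472) for Cla009611, which rests on a single count in the sterile bud. Cla022570 had a ratio of 4.31 (2.13 to 9.63) and Cla020109 of 3.53 (1.64 to 8.44). For Cla005777 the ratio of 5.13 had an interval of 0.574 to 243, so a difference between the buds was not detectable at this depth. Lower bounds against 0 counts were 16.4 for Cla005199, 6.16 for Cla016383 and 2.39 for Cla013246.

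An exact test in edgeR, its dispersion taken from the trend of the additive model, called 5 of the 8 genes lower in DAH3615-MS floral buds at an adjusted p under 0.01, against 4.88% of all expressed genes and 6.97% of genes with at least 10 CPM in DAH3615 flowers. This test compares the 2 bud libraries, not the conditions. Without replicates the dispersion reflects departures from the additive model, not the spread between plants. The adjusted p from edgeR's exact test was 4.24e-18 for Cla009057, 4.63e-09 for Cla009611, 7.65e-09 for Cla005199, 0.00102 for Cla016383 and 0.00931 for Cla022570. The genes not called by edgeR's exact test were Cla020109 (adjusted p = 0.0570), Cla013246 (0.264) and Cla005777 (0.952). When the biological coefficient of variation was instead set at 0.4 for every gene, the count was 3, without Cla016383 and Cla022570.

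**Figure D3:**
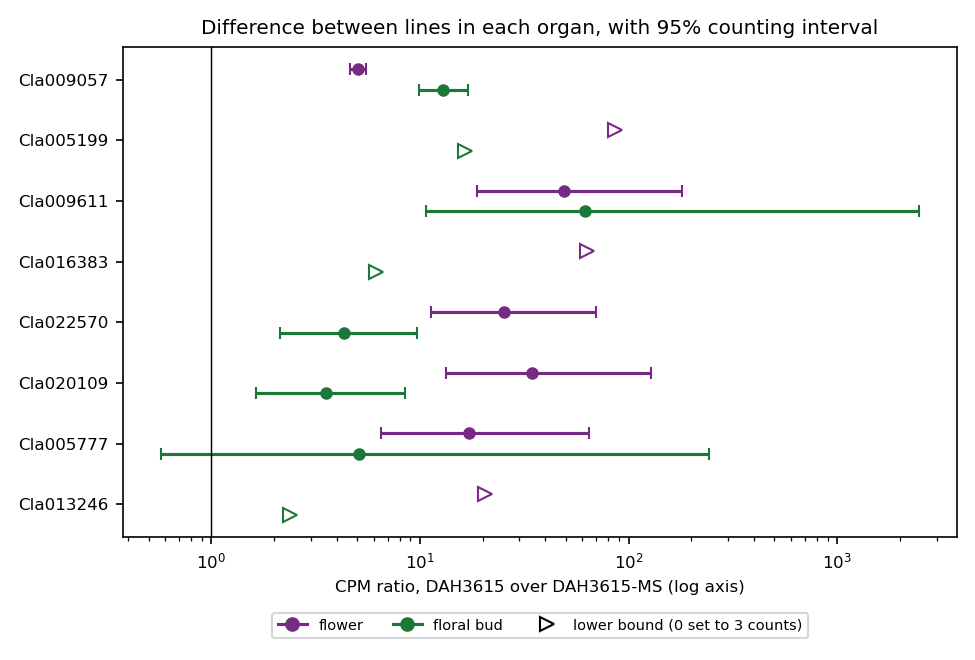
For each gene the CPM ratio of DAH3615 over DAH3615-MS is shown on a log axis, in flowers (purple) and in floral buds (green), with the 95% counting interval, and open triangles mark lower bounds where the DAH3615-MS library had 0 counts. Cla009057 has the larger ratio in buds (5.05 in flowers, 12.8 in buds), whereas Cla022570 (25.2 in flowers, 4.31 in buds) and Cla020109 (34.6 in flowers, 3.53 in buds) have the larger ratio in flowers.

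Within the sterile line, 3 of the 8 genes had a higher value in flowers than in floral buds, and for Cla009057 alone the counting interval excluded 1. Cla009057 was 9.43-fold (7.24 to 12.5) higher in DAH3615-MS flowers than in DAH3615-MS floral buds. On the CPM + 1 scale it was the 1 gene of the 8 that reached 3-fold, against 4.83% of all expressed genes and 6.74% of genes with at least 10 CPM in DAH3615 flowers. It was also the 1 gene called higher in DAH3615-MS flowers by edgeR's exact test (adjusted p = 2.84e-13), which compares the 2 libraries and called 6.94% of all expressed genes and 10.9% of those with at least 10 CPM in DAH3615 flowers. The single gene is 12.5% of the 8, so a share near the background. When the biological coefficient of variation was set at 0.4 for every gene, the call of Cla009057 was lost, and 0 of the 8 genes were called, with 1 gene under an unadjusted p of 0.05.

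The other 7 genes gave little to compare in the sterile line. Cla005199, Cla016383 and Cla013246 had 0 counts in both organs. Cla009611 and Cla005777 each had a flower over floral bud ratio of 4.41 with an interval of 0.437 to 217, set by 4 counts against 1. Cla022570 had a ratio of 0.662 (0.198 to 2.01) and Cla020109 of 0.490 (0.110 to 1.76), so neither direction was separable from counting error. Summed over these 7 genes, there were 18 counts (3.44 CPM) in DAH3615-MS flowers and 21 counts (3.63 CPM) in DAH3615-MS floral buds, against 1282 counts (203 CPM) in DAH3615 flowers and 211 counts (37.5 CPM) in DAH3615 floral buds. The summed flower over floral bud ratio was 0.945 (0.475 to 1.86) in DAH3615-MS and 5.42 (4.68 to 6.30) in DAH3615. The sterile interval thus includes 1, and the size of the fertile ratio was fixed by the rule.

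The organ ratio of the sterile line was set against that of the fertile line gene by gene, as a ratio of ratios with an interval for counting error and no replicate check. The rule read 3 of the 4 libraries in it and required both a high fertile ratio and a low sterile flower, which favours values below 1, so the values are a description. The ratio of ratios was 2.55 (1.93 to 3.35) for Cla009057, the one gene with clear counts in all 4 libraries. It was 0.171 (0.0590 to 0.498) for Cla022570 and 0.102 (0.0296 to 0.352) for Cla020109, whose sterile ratios lay below 1. For Cla009611 (1.26, 0.138 to 11.5) and Cla005777 (0.298, 0.0279 to 3.19) the interval includes 1.

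**Figure D4:**
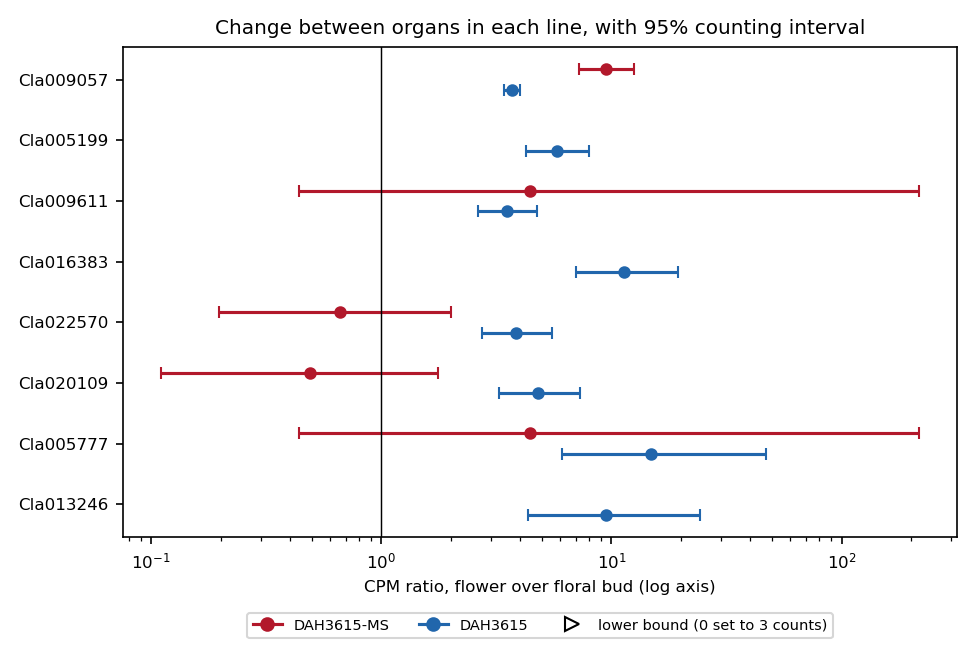
For each gene the CPM ratio of flower over floral bud is shown on a log axis in DAH3615-MS (red) and in DAH3615 (blue), with the 95% counting interval, and genes with 0 counts in both DAH3615-MS libraries have no red point. The blue points lie between 3.51 and 14.8, while the red points are at 9.43 for Cla009057, at 4.41 with very wide intervals for Cla009611 and Cla005777, and below 1 for Cla022570 and Cla020109.

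All 8 genes together took 0.0105% of the counts in DAH3615-MS flowers (95% Wilson interval 0.00962 to 0.0114) and 0.00144% in DAH3615-MS floral buds (0.00116 to 0.00178). In DAH3615 they took 0.0713% of the flower library (0.0693 to 0.0735) and 0.0175% of the floral bud library (0.0165 to 0.0187). Most of these counts belonged to Cla009057, with 530 of 548, 62 of 83, 3224 of 4506 and 776 of 987 counts in the same library order.

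In the additive model of line and organ over all 4 libraries, 7 of the 8 genes were called lower in DAH3615-MS (3.92% of all expressed genes) and 5 were called higher in flowers (7.59%). The rule used both contrasts, and nothing is read from these counts. The line count depends on the test, with 4 genes called under DESeq2 or a filter on low counts. Over all genes these made 655 and 653 calls of a line effect, against 780 in the additive model.

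The organ criterion capped the DAH3615 floral bud level of the 8 genes, which favours a low median in that library. Set beside the other 564 line-biased genes, the 8 had lower medians in the fertile line. Their median was 0.764 CPM in DAH3615-MS flowers, 0.173 CPM in DAH3615-MS floral buds, 32.5 CPM in DAH3615 flowers and 6.48 CPM in DAH3615 floral buds, against 0.573, 0.692, 72.7 and 65.9 CPM over the other 564. The median log2 line difference in buds (DAH3615 over DAH3615-MS, CPM + 1) was 1.85 for the 8, 4.45 for the 564 and -0.10 over all expressed genes. At least 4-fold lower in DAH3615-MS floral buds were 4 of the 8 and 500 of the 564 (88.7%), and the cap on the fertile bud level lowers the first of these. The 8 genes and the 564 shared a median log2 organ difference of 0 in the sterile line. For the 8 it is the value of the genes with 0 counts in both DAH3615-MS libraries. Among the 564, 110 (19.5%) also had 0 counts in both, and the medians of the 564 there were 0.573 and 0.692 CPM. In neither set is the 0 a measured lack of change.

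A pair of related sets show where the 8 stand. A mirror rule, with the fertile bud as the peak, selected 78 genes. Another 432 genes were at least 3-fold higher in flowers than in floral buds in both lines and within 2-fold between lines in flowers. Those 432 had a median log2 organ ratio of 2.28 in the sterile line and 2.34 in the fertile line. In the fertile line the 8 genes had a median of 2.24, close to that of the 432, but their median in the sterile line was 0. That 0 is the value of the 3 genes with 0 counts in both DAH3615-MS libraries, not a measured lack of change. The medians of the 432 were bounded by their own rule, which required a high organ ratio in both lines. The line criterion of the 8 excluded genes that were high in the sterile flower. The contrast therefore follows in part from how both sets were chosen.

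Genes just inside and just outside each limit show how the set depends on it. For the organ ratio, Cla009611 (3.29) and Cla022570 (3.53) were just inside, and Cla004523 (2.87, with 0, 0, 536 and 163 counts in DAH3615-MS flowers, DAH3615-MS floral buds, DAH3615 flowers and DAH3615 floral buds) and Cla015089 (2.75, with 12, 11, 427 and 135) just outside. For the line ratio, Cla009057 (5.01) and Cla005777 (8.02) were inside, while Cla011547 (3.61, with 13, 2, 73 and 1 counts) and Cla005528 (2.79, with 44, 45, 159 and 40) were outside. By level, Cla013246 (11.7 CPM) and Cla005777 (13.1 CPM) were inside, and Cla009247 (9.18 CPM, with 0, 0, 58 and 0 counts) and Cla001170 (7.60 CPM, with 2, 1, 48 and 10) were outside. Cla009247 was thus detected in the fertile flower alone, and Cla004523 was silent in both sterile libraries.

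Descriptions were at hand for 1999 genes, of which 1021 had at least 10 CPM in DAH3615 flowers, 55 met the line criterion, 59 met the organ criterion and 0 met both. The 0 was fixed in advance, since only the 8 selected genes met both criteria and none of them has a description. Among the described genes, 8 matched a list of pollen and anther proteins. The 4 of these with at least 10 CPM in DAH3615 flowers all met the line criterion. None of the 4 met the organ criterion, which was fixed once they met the line criterion, since no described gene met both. The level filter in the fertile flower favours genes that are high there, and the other 4 genes of the list were low. The list was also chosen with earlier results of these data known, so nothing is read from the 4 that met the line criterion. Cla001499 had 1, 1, 33 and 15 counts in DAH3615-MS flowers, DAH3615-MS floral buds, DAH3615 flowers and DAH3615 floral buds, with a line ratio of 5.23. Cla002155 had 12, 45, 10 and 18 counts (line ratio 0.785), Cla003156 had 8, 1, 10 and 8 counts (1.02) and Cla002397 had 0, 0, 0 and 2 counts (0 in both flowers). Of the 8 genes on this list, 5 were thus at least 4-fold lower in DAH3615-MS flowers and 3 were not. Over all expressed genes the share was 3.41%, and nothing is read from the 5 either. LIM domain protein Cla001608, of a family that binds actin, had 1, 1, 5913 and 3772 counts in the same library order, and its organ ratio in DAH3615 was 1.40. Pollen allergen Cla002347 had 6, 3, 3120 and 2018 counts and an organ ratio of 1.38. Profilin Cla000908, an actin monomer binding protein, had 4, 16, 282 and 332 counts (0.761), and Cla003043, described as Pollen Ole e 1, had 8, 108, 170 and 1142 counts (0.137). These 4 genes were lower in the sterile line in each organ, and Cla000908 and Cla003043 were higher in the bud of each line.

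Described genes nearest to the pattern had organ ratios between 2 and 3 and were picked after their values were seen. They were a monooxygenase, Cla000755 (0, 0, 1349 and 508 counts, ratio 2.35), a GPI-anchored protein, Cla002276 (0, 0, 314 and 125 counts, 2.19), and a multidrug resistance protein mdtK, Cla001240 (3, 2, 433 and 182 counts, 2.09). By group, counts are over the described genes with at least 10 CPM in DAH3615 flowers, and the shares over all genes of that level are the 5.19% and 5.98% given above. The groups were matched by description and can share genes with the pollen and anther list, so their counts are not independent of it. The line criterion was met by 5 of 11 pectin and cell wall enzymes, 3 of 7 arabinogalactan, extensin and GPI-anchored proteins and 3 of 18 actin and microtubule proteins. It was met by 2 of 23 GTPase and vesicle traffic proteins, 1 of 17 calcium proteins, 4 of 97 kinases and phosphatases, 1 of 47 transporters, 1 of 25 lipid proteins, 1 of 66 ubiquitin and proteolysis proteins, 1 of 7 desiccation and heat shock proteins and 6 of 84 unnamed proteins. No transcription factor (0 of 48), photosynthesis protein (0 of 5) or ribosomal protein (0 of 16) met it. The organ criterion was met by 10 of the kinases and phosphatases, 9 of the transcription factors, 6 of the unnamed proteins, 2 each of the GTPase and vesicle traffic proteins and the transporters, and 1 each of the cell wall, lipid, proteolysis and desiccation groups. It was met by 0 of the arabinogalactan, calcium, actin, photosynthesis and ribosomal groups, and no group held a gene that met both criteria.

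The 8 genes lay on 7 chromosomes, 5 on the plus and 3 on the minus strand, and no member had another among its 4 nearest genes on each side. Of 64 such neighbours, 54 had counts and 2 met the line ratio of 4, which 3.41% of all expressed genes met. One was Cla022571, next to Cla022570 on the same strand with 3126 bp between them, which had 6 counts in DAH3615-MS flowers, 9 in DAH3615-MS floral buds, 1348 in DAH3615 flowers and 772 in DAH3615 floral buds. It was far above the line limit in flowers, with an organ ratio of 1.55, so this adjacent pair shared the line difference but not the peak in the open flower. The other was Cla009613, the second gene after Cla009611, with 7, 32, 58 and 50 counts in the same order and a line ratio of 4.36. The 3 neighbours with an organ ratio of at least 3 (Cla009607, Cla022566 and Cla013242) had line ratios of 0.771, 0.921 and 0.765. An organ ratio of at least 3 was found in 4.13% of all expressed genes, and nothing is read from either count of neighbours. The median log2 line difference of the neighbours was -0.07. No neighbour overlapped a member, and the smallest gap was 1334 bp.

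**Figure D5:**
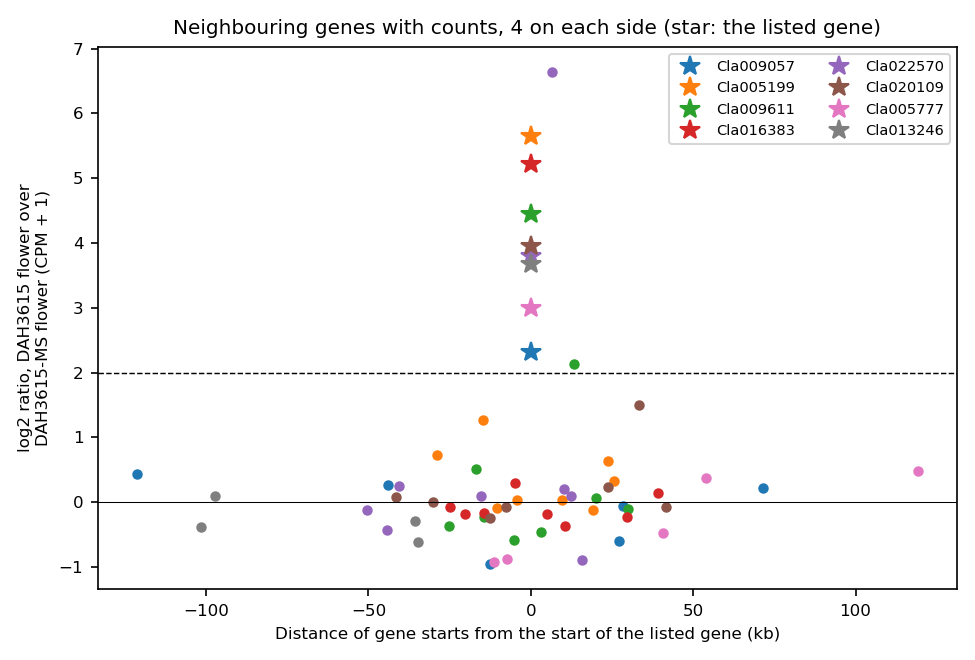
The log2 ratio of DAH3615 flower over DAH3615-MS flower (CPM + 1, vertical) is plotted against the distance in kb of each gene start from the start of the selected gene (stars at 0), for the 54 neighbours with counts, coloured by the gene they neighbour. Apart from Cla022571 and Cla009613 the neighbours lie below the dashed line at a ratio of 4, with a median of -0.07.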

How the data were processed

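Reads were trimmed by the authors (Trimmomatic) and mapped onto watermelon genome version 1 using Bowtie2 inside TopHat2, and HTSeq gave the deposited raw counts per gene in 4 libraries, 1 per condition, with no normalization. Tool versions and the strand setting of the counting are not given in the sources used here, so reads of overlapping antisense genes could not be separated. Gene positions are those of the count table, and no genome sequence was used.

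CPM was computed from column sums (5239032 to 6315796 counts), and ratios of the rule were taken on CPM + 1. Genes with 0 counts in all libraries (3708) were left out. The remaining 19732 were fitted in edgeR 4.0.16 (R 4.3.3) by an additive quasi-likelihood model of line and organ with TMM scaling (biological coefficient of variation 0.174, prior df 6.43, residual df 1). Exact tests between 2 libraries used the trended dispersion of that model and compare libraries, not conditions. With no replicates, that dispersion and the coefficient of variation do not measure the spread between plants. P-values were adjusted by Benjamini-Hochberg over all genes, with a threshold of 0.01. Ratios of counts have exact (Clopper-Pearson) 95% intervals, levels exact Poisson intervals, ratios of ratios Wald intervals on the log scale and shares Wilson intervals, all for counting error only. A count of 0 was set to 3 counts in that library for lower bounds. The other count was taken as exact, so these bounds are not 95% limits. The fits were tested on simulated counts. Summaries were made in Python 3.11.15 with scipy 1.17.1, pandas 2.3.3 and numpy 2.4.6.

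The 8 genes, the comparison sets and the description lists were chosen with earlier results of these data known. The naming rule took the members with the highest and lowest values of each contrast, which covers all 8, and the 2 genes just inside and outside each limit. Any other gene was named with its values in view. The study's supplement gave the descriptions, of which the first 1999 genes were used here. Alternatives were TMM and DESeq2 size factors, other pseudocounts and limits, DESeq2 1.42.0, edgeR's likelihood ratio test and RLE factors, limma-voom (limma 3.58.1), a filter of 10 counts, a fixed dispersion, a false discovery rate of 0.05 and, added after the data were seen, the quasi-likelihood test in its newer form.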

Additional observations from a re-analysis of the deposited data

Results flagged for a closer look

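In 2 of the 8 genes the organ ratio was below 1 in DAH3615-MS and above 1 in DAH3615, where the rule required at least 3. Cla022570 had a flower over floral bud ratio of 0.662 in DAH3615-MS, from 6 and 10 counts, against 3.86 in DAH3615. Cla020109 had a ratio of 0.490 in DAH3615-MS, from 4 and 9 counts, against 4.80 in DAH3615. The rule also limited the level in DAH3615-MS flowers. Each line had 1 library per organ, the counting interval of each DAH3615-MS ratio includes 1, so its direction is not separable from counting error, and the difference between lines was not tested over replicates.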

How the results depend on the processing

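The number of genes selected was 8 with column sums and TMM factors, and 9 with DESeq2 size factors (Cla004523 added). It was 9 with a pseudocount of 0.5 CPM, 8 with 2 CPM, 6 at a minimum of 20 CPM and 7 at a line ratio of 8, where Cla009057 left. Looser or stricter limits moved it further, to 13 at a minimum of 5 CPM, 26 at an organ ratio of 2, 4 at an organ ratio of 5 and 26 at a line ratio of 2. The genes at least 4-fold lower in DAH3615-MS floral buds numbered 4 under each scaling and with a pseudocount of 0.5 CPM, and 3 with 2 CPM.

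The line effect was called in 7 of the genes in the additive model, in 8 with the likelihood ratio test or limma-voom, 7 with RLE factors, 5 with the newer quasi-likelihood form, and 4 with the filter of 10 counts or with DESeq2. Over all genes the additive model made 780 calls of a line effect, against 1339 with the likelihood ratio test, 1028 with limma-voom and 813 with RLE factors. The totals were 562 with the newer quasi-likelihood form, 653 with the filter of 10 counts and 655 with DESeq2. With the biological coefficient of variation set at 0.4, the exact test called 3 genes in floral buds in place of 5 (534 against 994 over all genes) and 0 in place of 1 between the DAH3615-MS organs (143 against 2773). Of 64 single-gene log2 ratios on other scalings and pseudocounts, 61 moved from the main value by less than the counting error (of the fertile count alone where the sterile count was 0), and 0 changed direction. The other 3 were ratios in floral buds against 0 counts with another pseudocount: Cla005199 had a log2 ratio of 3.25 with 1 CPM, 4.17 with 0.5 CPM and 2.40 with 2 CPM, and Cla016383 had 2.07 with 1 CPM and 2.89 with 0.5 CPM. The count of directions was partly fixed in advance, since a pseudocount added to both values cannot change which is larger. The DAH3615-MS organ ratios of Cla005199, Cla016383 and Cla013246 compare 0 counts with 0 counts, so they could not move. Libraries could not be paired by replicate because each condition had 1 library and the labels carry no replicate numbers. The additive model did adjust the line effect for organ.

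With 1 library per condition, the spread between plants is unknown, and line differences in flowers and in buds cannot be told apart from the size of the organ. Counts of 10 or fewer in DAH3615-MS limit 7 of the 8 genes.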
